A study of Mus musculus with 5 samples.

Results

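The step from 0.5 h to 2 h of lipopolysaccharide (LPS) was examined in macrophages grown from the bone marrow of BALB/c mice. It is the difference between 2 arrays of a series of 5, the array of cells given LPS for 2 h minus the array of cells given LPS for 0.5 h, and it covers 8692 named genes read by 13876 probes. All cells were bone marrow cells differentiated in culture with human colony stimulating factor-1 (CSF-1). The 0 h culture had no LPS, and the cultures of 0.5, 2, 7 and 21 h had S. minnesota LPS at 10 ug/ml. Every array set macrophage RNA against RNA of whole C57BL6/J embryos of day 17.5, so each value is a log ratio of these 2 RNAs. Each time had 1 array, so a step has no replicate, no test was possible, and genes are counted by size alone. There was no culture kept without LPS for 2 h, so LPS and time in culture cannot be told apart.

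LPS is the outer membrane lipid of Gram-negative bacteria and is sensed on macrophages by Toll-like receptor 4 (TLR4). The receptor signals through the adaptor MyD88 to NF-kappaB and MAP kinases, which switch on immediate-early genes such as Fos within minutes and then cytokines and chemokines. Through the adaptor TRIF it also activates IRF3 and the secretion of interferon-beta, which acts back on the same cells and turns on interferon-stimulated genes as a later wave. The step from 0.5 h to 2 h spans the interval between these waves.

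Many genes of the later waves carry, in their promoters, the letters bound by interferon-activated factors (the interferon-stimulated response element, ISRE) or by NF-kappaB (the kappaB site). Promoters of 5 genes with higher values at 2 h are shown because they hold such letters. Each runs 5′ to 3′ on the gene's own strand, from 250 bases before the transcription start to 50 after it, from RefSeq on GRCm38.p6. Capitals mark GAAANNGAA (ISRE) and GGGNNTTTC (kappaB) on either strand. Each is 1 form of its site and other forms were not searched, so a window without a match may still hold a site. Gbp2 lies at chr3:142620413-142620712 on the plus strand, Rsad2 at chr12:26456403-26456702 on the minus strand, Ifit1 at chr19:34640639-34640938 on the plus strand, Cxcl10 at chr5:92348840-92349139 on the minus strand and Eif2ak2 at chr17:78882523-78882822 on the minus strand.
Gbp2: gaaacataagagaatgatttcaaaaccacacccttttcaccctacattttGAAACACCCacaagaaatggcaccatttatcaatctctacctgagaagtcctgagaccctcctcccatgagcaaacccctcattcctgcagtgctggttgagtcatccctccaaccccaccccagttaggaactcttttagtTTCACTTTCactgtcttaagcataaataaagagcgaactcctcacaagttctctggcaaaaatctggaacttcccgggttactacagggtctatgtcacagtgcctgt
Rsad2: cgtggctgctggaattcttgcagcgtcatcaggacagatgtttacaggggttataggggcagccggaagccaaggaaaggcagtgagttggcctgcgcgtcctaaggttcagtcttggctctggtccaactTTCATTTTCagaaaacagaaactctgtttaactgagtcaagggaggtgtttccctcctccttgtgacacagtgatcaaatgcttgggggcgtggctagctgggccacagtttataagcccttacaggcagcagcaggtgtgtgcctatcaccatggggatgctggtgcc
Ifit1: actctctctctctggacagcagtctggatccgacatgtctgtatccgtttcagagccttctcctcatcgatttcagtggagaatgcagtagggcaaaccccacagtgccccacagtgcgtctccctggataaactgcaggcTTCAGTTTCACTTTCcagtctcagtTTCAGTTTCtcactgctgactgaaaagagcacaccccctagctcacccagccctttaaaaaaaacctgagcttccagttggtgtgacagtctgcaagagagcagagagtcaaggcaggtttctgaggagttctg
Cxcl10: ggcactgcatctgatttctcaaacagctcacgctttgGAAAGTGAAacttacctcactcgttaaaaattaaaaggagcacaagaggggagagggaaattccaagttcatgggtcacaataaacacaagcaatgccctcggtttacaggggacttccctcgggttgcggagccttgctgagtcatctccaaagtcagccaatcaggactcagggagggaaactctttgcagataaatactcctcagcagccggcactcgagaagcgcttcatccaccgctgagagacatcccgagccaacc
Eif2ak2: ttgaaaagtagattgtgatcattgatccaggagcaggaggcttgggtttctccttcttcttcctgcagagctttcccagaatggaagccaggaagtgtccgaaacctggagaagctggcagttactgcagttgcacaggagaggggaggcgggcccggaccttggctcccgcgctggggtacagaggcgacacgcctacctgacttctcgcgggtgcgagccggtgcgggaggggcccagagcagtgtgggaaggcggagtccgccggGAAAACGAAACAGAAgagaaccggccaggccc
Ifit1 had 3 ISRE matches, 2 of which overlap, all on the opposite strand between bases -109 and -76 (the start being 0). Gbp2 had 1 ISRE match from base -58 and 1 kappaB match from base -200, Rsad2 had 1 ISRE match from base -119, and Cxcl10 had 1 from base -213. The 2 overlapping matches of Eif2ak2 lie after its start, from base 18 to base 32. Promoter windows were matched for 7001 of the 8692 genes, and 8.63% of these genes had an ISRE match and 4.90% a kappaB match in at least 1 window. An ISRE match was found in 10 of the 21 interferon-stimulated genes with a window (47.6%), including 5 of the 7 whose step was at least 0.5 units. In contrast, 9 of the 104 genes with a window and a step of at least 1 unit had an ISRE match (8.65%), and 4 had a kappaB match (3.85%). A match describes letters in a window and was not tied to binding.

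Neither the log base of the values nor which RNA is the numerator could be read from the sources used here. A step of 1 unit is a 2-fold difference if the base is 2, a 2.72-fold difference if it is e and a 10-fold difference if it is 10. Values are read as macrophage RNA over embryo RNA, which is likely but not settled. On this reading the 45 measured genes of embryonic tissues, such as fetal globins and collagens, had medians of -0.62, -0.63 and -0.56 on the first 3 arrays, below the macrophage markers at -0.09, -0.10 and 0.06. If the ratio runs the other way, every higher below reads as lower. Of the labelled cell type's markers, lysozyme (Lyz2) stood at 1.18, 1.23, 1.35, 1.27 and 1.52 in the order 0, 0.5, 2, 7 and 21 h, an order kept for all values below. The shared Fc receptor chain Fcer1g stood at 0.63, 0.71, 0.70, 0.54 and 0.72, whereas Cd68, a lysosomal protein of macrophages, was near the embryo level at -0.15 and -0.17 before 2 h. Lyz2, Fcer1g and Cd68 were named outside the rule given below. Of the 13 measured macrophage markers behind the medians above, Cd52 stood at -0.24 and -0.19 at 0 h and 0.5 h. Fcgr2b stood at -0.13 and -0.28 and Fcgr1 at 1.16 and 1.08 on the same arrays. Adgre1, Csf1r, Cd14 and Itgam were not analysed here.

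Error could be judged only from different probes of one gene on the same 2 arrays. Over the 3034 genes with 2 or more probes, the steps of a gene's probes had a standard deviation of 0.32 units, so 1 probe carries an uncertainty of 0.65 units at 2 standard deviations and a mean of 2 probes a standard error of 0.23 units. This spread does not include differences between cultures or hybridisations. It is pooled over all these genes, and some with large steps had probes much further apart. Tbx18 had probe steps of 0.09 and 3.71 and Ngb 0.19 and 2.65, whereas Ccdc32 had 1.92 and 2.51. The pooled value may thus understate the error of a large step from 1 probe. Across these 3034 genes, the steps of the first 2 probes of a gene correlated at 0.12 over genes, which share their 2 arrays. Of the 1867 genes with exactly 2 probes, the 2 steps had the same sign in 976 (52.3%). Probes of one symbol may also read different transcripts. Over all genes the step had a standard deviation of 0.34 units and a median of 0.00, and 50.1% of genes were above 0.

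The 2 h array stood apart in its spread. Its centred values had a standard deviation of 0.53, against 0.43 at 0.5 h and 0.32 to 0.33 on the other 3 arrays, and 902 probes stood at least 1 unit above its median. The 0.5 h array had 493 such probes, and the other 3 had 101 to 133.

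Between 0.5 h and 2 h, 149 of 8692 genes (1.71%) were at least 1 unit higher and 64 (0.736%) at least 1 unit lower. Of the 149, 14 had 2 or more probes that all pointed the same way, 133 had 1 probe, and 2 had probes that disagreed. The 64 were made up of 4 genes with agreeing probes and 60 with 1 probe. At the smaller size of 0.5 units, 475 genes (5.46%) were higher and 269 (3.09%) lower. For a gene with 1 probe, 0.5 units is within 2 standard deviations of a probe (0.65 units). The single-probe steps of Il1rn, Psmb10, Mapk8, Cd3d and Gzmb given below are among those within it. The thresholds cut through a continuous range. Tm6sf2 at 1.004, Cyp2j6 at 1.005 and Apol6 at 1.007 lay just inside the higher group, and Pck1 at 0.998, Cxcl15 at 0.996 and Fbxo31 at 0.991 just outside it. At the lower end, Dnajb7 at -1.006, Fam207a at -1.007 and 1700037H04Rik at -1.009 lay just inside, and Proser2 at -0.998, Mrpl46 at -0.992 and 4930522H14Rik at -0.992 just outside. Higher genes made up 70.0% of those past 1 unit, a split that moved to 58.5% with quantile normalization, 40.0% with each array scaled to one spread and 26.4% with cyclic loess.

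**Figure D1:**
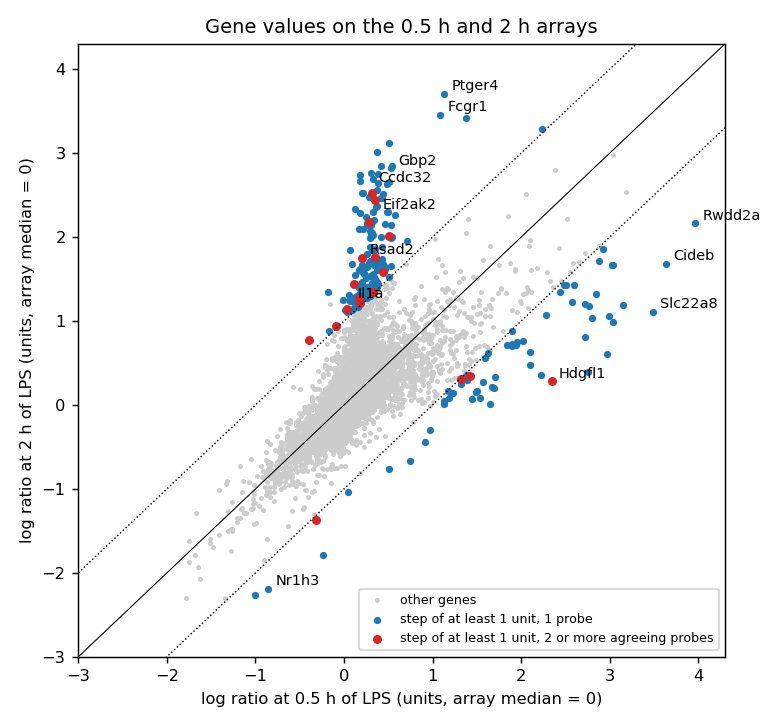
Each point is 1 gene, with its centred log ratio on the 0.5 h array (x axis) and on the 2 h array (y axis), both in units of the deposited table; the solid line marks no step and the dotted lines a step of 1 unit. The 149 higher genes form a column above low 0.5 h values, with Ptger4 at 3.71 and Fcgr1 at 3.46 at its top, while most of the 64 lower genes, such as Cideb and Slc22a8, lie far to the right.

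Genes read by 2 or more agreeing probes are given first. Of the 3034 multi-probe genes, 1250 had probes that agreed in sign. Of the 3034, 14 (0.461%) were at least 1 unit higher with all probes above 0, and 4 (0.132%) at least 1 unit lower with all probes below 0. Because both probes of a gene need only share a sign, the second probe was often near 0, as in Tbx18, whose probes had steps of 0.09 and 3.71. A stricter class, chosen after the values were seen, asked for a step of at least 0.5 units in every probe: 15 genes (0.494%) met it on the higher side and 1 gene (0.033%) on the lower side. Of the 15, 7 met it with a running median along the probe numbers removed, 4 with each array scaled to one spread, 3 with quantile normalization and 2 with cyclic loess, and on the lower side cyclic loess gave 16. Without averaging, a gene with 1 probe has more spread, with a standard deviation of 0.38 against 0.24 for multi-probe genes, so the shares of the classes cannot be set against each other.

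Of 8 interferon-stimulated genes with 2 or more probes, 6 had all probes above 0 and 2 all probes below 0. Over all 3034 multi-probe genes, 677 had all probes above 0 and 573 all probes below 0. The 3 largest steps of the list are described here. Eif2ak2, which encodes the double-stranded RNA sensor kinase PKR that blocks translation, stood at 0.47, 0.35, 2.44, 0.54 and 0.64. Its step was 2.09, with probe steps of 1.37 and 2.81, and it was high on the 2 h array alone. Rsad2, which encodes the antiviral radical-SAM enzyme viperin, stood at 0.96, 0.20, 1.76, 2.02 and 1.89, a step of 1.55 with probe steps of 0.56 and 2.54. It was thus lower at 0.5 h than at 0 h, and measured from the 0 h array its 2 h value was higher by 0.79. Ifit1, which encodes a protein that binds viral RNA lacking host cap methylation, stood at 0.77, 0.32, 1.22, 1.51 and 1.49. Its step was 0.90 with probe steps of 0.68 and 1.13, and like Rsad2 it was slightly higher at 7 h and 21 h than at 2 h. The step of Rsad2 was 0.97 with quantile normalization and 0.29 with cyclic loess, and that of Eif2ak2 1.26 and 1.27.

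Of the other agreeing genes, 7 had both probes above 0.5 units and a mean step of at least 0.94. Ccdc32, which encodes a coiled-coil protein of clathrin-mediated endocytosis, stood at 0.24, 0.31, 2.53, 0.54 and 0.55. Its step of 2.21 was the largest among agreeing genes, with probe steps of 1.92 and 2.51. Fancl, the E3 ubiquitin ligase of the Fanconi anaemia DNA repair complex, stood at 0.24, 0.51, 2.01, 0.64 and 0.75, a step of 1.498 with probe steps of 1.17 and 1.83. Hexa, the alpha subunit of the lysosomal hexosaminidase, stood at 0.58, 0.44, 1.59, 0.69 and 0.62, a step of 1.14. In these 3 genes the 2 h value lay above all of the other 4, which were close to each other. With quantile normalization their steps were 1.37, 0.82 and 0.59, and with cyclic loess 1.44, 0.72 and 0.41. Rep15, a partner of the recycling GTPase Rab15, stood at 0.20, 0.33, 1.35, 0.42 and 0.70, with a step of 1.02, and Mcu, the pore of the mitochondrial calcium uniporter, at 0.04, 0.17, 1.16, 0.26 and 0.26, with a step of 0.99. Rab11fip1, an effector of the recycling GTPase Rab11, had a step of 0.97 and Krr1, a ribosome assembly factor, a step of 0.94, both with each probe above 0.5. Krr1 was already higher at 0.5 h, at 1.03 against 0.61 at 0 h.

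The remaining members of the stricter class had smaller steps. Serp1, a stress-induced protein of the endoplasmic reticulum, stood at -0.27, -0.37, 0.23, 0.79 and 0.46, a step of 0.59 that was followed by a higher value at 7 h. Cep57 at 0.65, Mal at 0.62, Slc41a3 at 0.59 and Kbtbd4 at 0.56 completed the class. None of these 4 was more than 0.16 units above its 0 h value at 7 h.

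In 8 of the other agreeing genes 1 probe carried most of the step. Tbx18, a T-box transcription factor of the embryonic heart and ureter, stood at -0.15, 0.28, 2.18, 0.09 and 0.30, a mean step of 1.90. Ngb (neuroglobin), with a step of 1.42, had probe steps of 0.19 and 2.65, and Chrac1, a histone-fold subunit of a chromatin remodelling complex, with a step of 1.33, had 0.09 and 2.57. Pinx1 (1.16), Tmem177 (1.12), Rgs19 (1.10), Cspp1 (1.04) and Ablim1 (1.03) each had a lower probe between 0.01 and 0.37. In 2 more genes the probes disagreed in sign: Tmem79 had a mean step of 1.37 from probes at -0.03 and 2.76, and Bud23 a mean of 1.19 from probes at -0.04, 0.39 and 3.21.

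Agreeing genes with lower values were few. Hdgfl1, a homologue of hepatoma-derived growth factor best known from testis, stood at 0.27, 2.34, 0.28, -0.16 and -0.04. Its step was -2.06, with probe steps of -1.59 and -2.53, and it was the gene with every probe at least 0.5 units lower. The 0.5 h value alone was high, so that from 0 h to 2 h it differed by 0.01. Ssmem1 (-1.07), another gene known from sperm, and Dnajb7 (-1.01), a DNAJ co-chaperone, had the same form, at 1.42 and 1.32 on the 0.5 h array. Nsun4, a mitochondrial ribosomal RNA methyltransferase, stood at -0.12, -0.32, -1.37, -0.12 and -0.18, so its step of -1.05 came from a low 2 h value. The next 6 by size were Rbm42 (-0.96), Spatc1l (-0.91), Zcchc9 (-0.87), Prrg2 (-0.83), Kyat3 (-0.81) and the angiopoietin Angpt1 (-0.78), each with 1 probe at -0.35 or closer to 0.

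**Figure D2:**
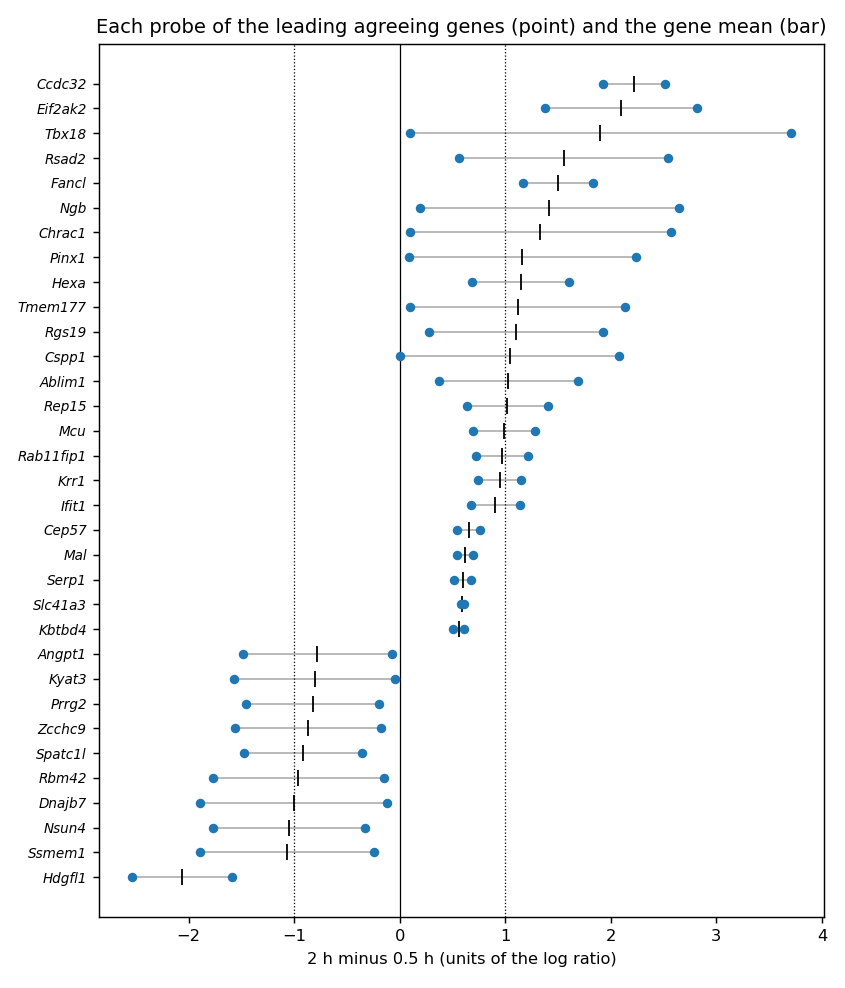
Steps of the single probes (points) and gene means (bars) of agreeing genes, in units of the log ratio (x axis), ordered by mean; the dotted lines mark 1 unit. Ccdc32, Eif2ak2, Fancl, Hexa and Hdgfl1 have both probes well away from 0, whereas Tbx18, Ngb and Chrac1 each have 1 probe near 0.

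Genes with 1 probe made up most of the count, with 133 of 5658 (2.35%) at least 1 unit higher and 60 (1.06%) at least 1 unit lower. Each of these values rests on 1 probe. Ptger4, which encodes the prostaglandin E2 receptor EP4, stood at 0.74, 1.13, 3.71, 0.98 and 1.09, a step of 2.57, and was high on the 2 h array alone. Fcgr1, the high-affinity IgG receptor CD64, stood at 1.16, 1.08, 3.46, 1.92 and 1.92, a step of 2.37 after which it stayed above its 0 h value. Its step was 1.46 with quantile normalization and 0.65 with cyclic loess. Vegfc, a lymphangiogenic growth factor, stood at 0.26, 0.18, 2.74, 1.03 and 0.99, a step of 2.56 that was likewise followed by higher values at 7 h and 21 h.

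The other leading genes have no shared role that was fixed in a list. Enpp5, an ectonucleotide phosphodiesterase family member, had the largest step of all at 2.64, from 0.38 to 3.01, and stood at 0.28 at 7 h. Dnase1, the secreted DNA-degrading enzyme, had a step of 2.61, from 0.51 to 3.12. Ccnl2, a cyclin of pre-mRNA splicing, had a step of 2.49, the uncharacterised 2810408I11Rik 2.46 and Myh11, the smooth muscle myosin heavy chain, 2.43. The mitochondrial haem-pathway transporter Abcb10 had a step of 2.37 and the RNA polymerase III subunit Polr3f 2.36. Of these 7 genes, Myh11 stood highest on the 7 h array, at 0.80.

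The 10 largest negative steps of single-probe genes belonged to genes with their highest value on the 0.5 h array, some of which were back near their 0 h value at 2 h and some not yet. Slc22a8, a kidney and brain organic anion transporter, stood at 0.27, 3.49, 1.11, 0.07 and 0.32, a step of -2.38. Syce1, a component of the synaptonemal complex of meiosis, stood at 0.49, 2.76, 0.39, 0.06 and 0.03, a step of -2.37. Capsl stood at 0.60, 3.04, 0.99, 0.06 and 0.02, a step of -2.05, and Cideb, a lipid-droplet protein of liver, at 0.08, 3.64, 1.68, -0.47 and 0.17, a step of -1.96. Spag6l (-1.96) and Enkur (-1.93), both known from sperm and cilia, 1700020M21Rik (-2.36), the telomere protein gene Tinf2 (-1.91), Speer5-ps1 (-1.87) and Rwdd2a (-1.80) were also highest at 0.5 h. At 2 h, Cideb was still above its 0 h value by 1.60, Rwdd2a by 1.44 and Slc22a8 by 0.84. Over all 64 lower genes, 45 stood at least 1 unit above each of the other 4 arrays at 0.5 h, and 4 stood at least 1 unit below each of them at 2 h: 2310002L09Rik, Glipr2, Nr1h3 and Nsun4. Any gene of either form is among the 64 by definition, so all 8692 genes gave the same 45 and 4. Measured from the 0 h array instead of the 0.5 h array, 8 genes were at least 1 unit lower at 2 h, and 4 of the 64 were among them.

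Nr1h3 (LXR-alpha), a sterol-sensing nuclear receptor of macrophage cholesterol export, stood at -0.73, -0.85, -2.19, 0.05 and -0.06. Its step of -1.34 was thus a dip at 2 h, and at 7 h it was above its 0 h value by 0.79. Pparg, the lipid-activated receptor of the same network, was higher by 1.25, at 0.08, 0.21, 1.46, 0.45 and 0.61. Over the 18 measured genes of cholesterol and lipid handling the median step was 0.01, with 10 above 0 and 8 below, and Nr1h3 and Pparg were the only members past 0.5 units.

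Across the interferon-stimulated genes the step was uneven. Of 61 genes listed, 30 were measured, 20 of them above 0 (all genes 50.1%), with a median of 0.14 against 0.00 for all genes. At least 0.5 units higher were 7 of the 30 (all genes 5.46%) and none was 0.5 units lower. The balance turned with the normalization: 3 were higher and 1 lower with quantile normalization, and 2 higher and 7 lower with cyclic loess, when the list median was -0.12. Gbp2, an interferon-induced GTPase that attacks pathogen vacuoles, led with 0.55, 0.53, 2.82, 1.93 and 1.95, a step of 2.29 from 1 probe, which was 1.36 with quantile normalization and 0.86 with cyclic loess. Ifi205, a member of the HIN-200 DNA-sensor family, stood at 0.51, 0.36, 1.28, 1.17 and 1.28, with a step of 0.92 that was 0.44 with quantile normalization and 0.06 with cyclic loess. Irf5, a transcription factor of TLR signalling, had a step of 0.67 and Oasl2, an oligoadenylate synthetase-like protein, 0.57 from agreeing probes. Oasl2 stood at 1.12, 0.21, 0.77, 1.43 and 0.89, so its 2 h value was below that of 0 h. From 0 h to 7 h the median of the list ran through 0.38, 0.23, 0.42 and 0.82.

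Some interferon-inducible genes did not share the step. Igtp and Irf7, picked out after their values were seen, had agreeing probes with steps of -0.50 and -0.30. Igtp, an immunity-related GTPase, stood at 0.49, 1.09, 0.60, 0.90 and 0.57, and Irf7, the regulator that amplifies interferon-alpha production, at 0.45, 0.72, 0.42, 1.09 and 0.96. Usp18, a brake on interferon signalling named for the same reason, had a step of 0.23 and was first clearly higher at 7 h, at 1.27 against 0.08 at 0 h. Isg15, Mx1, Ifit3 and other genes of the list were not analysed here.

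Cytokine genes were thinly covered, with 7 of 31 measured. Il1a, the alarm cytokine interleukin-1 alpha, stood at 0.03, 0.07, 1.24, 2.02 and 0.96, a step of 1.17 that continued to 7 h. The step was 0.73 with quantile normalization and 0.36 with cyclic loess. Il1rn, its secreted receptor antagonist, stood at -0.34, -0.19, 0.41, 0.94 and 0.69, a step of 0.61, and like Il1a was highest at 7 h. Csf1, the macrophage growth factor of the mouse cells themselves, had a step of 0.67, from 0.06 to 0.73, and stood at 0.34 at 7 h. Hbegf, an EGF-family growth factor, had a mean step of -0.51 from probes at -1.02 and 0.01. Tnf, Il1b, Il6 and Il10 were not analysed here.

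Among chemokines and their receptors, 9 of 11 measured genes had a step above 0 (all genes 50.1%) and 1 passed 0.5 units, a share near the 5.46% of all genes. The median was 0.16 and became -0.03 with cyclic loess, when 5 of 11 were above 0. Cxcl10, an interferon-induced attractant of T cells, stood at 0.42, 0.31, 0.99, 1.70 and 1.32, a step of 0.68 that became -0.21 with cyclic loess. Ccl6, a chemokine of myeloid cells, had 7 probes with steps of 0.01 to 1.01, all above 0, with a mean step of 0.33 that became 0.03 with quantile normalization and -0.44 with cyclic loess. The chemerin receptor Ccrl2 behaved otherwise: it stood at -0.28, 1.40, 1.05, 1.08 and 0.68, so it was already high at 0.5 h and its step was -0.35. Cxcl1, Cxcl2, Ccl3 and Ccl4 were not analysed here.

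NF-kappaB pathway and target genes had the highest median of the 24 lists, 0.23 over 13 of 33 measured genes, with 4 at least 0.5 units higher (all genes 5.46%) and none 0.5 units lower. With quantile normalization the median was 0.04 and no member passed 0.5 units; with cyclic loess it was -0.04, with none higher and 1 lower. Sod2, the mitochondrial superoxide dismutase, had the best coverage: its 4 probes had steps of 0.30 to 0.64, and the gene stood at 0.02, 0.12, 0.67, 0.83 and 0.74, a step of 0.55. Map3k8, the kinase TPL2 that carries TLR signals to ERK, stood at 0.13, 0.42, 1.25, 0.54 and 0.53, a step of 0.83. Bcl2a1a, an anti-apoptotic BCL2 relative, stood at 0.27, 0.17, 0.88, 0.84 and 0.76, a step of 0.71, although near-identical Bcl2a1 copies may share its signal. Cyld, a deubiquitinase that restrains NF-kappaB, had a mean step of 0.78 from probes at -0.05 and 1.60. The inhibitor gene Nfkbia, named after its values were seen, stood at -0.05, 0.59, 0.53, 0.71 and 0.41 and so had its higher value by 0.5 h, with a step of -0.05. From 0 h to 7 h the list median ran through 0.07, 0.17, 0.58 and 0.54.

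Immediate-early genes showed no common step. Of 28 measured genes of 41, 12 were above 0 and 16 below, the median was -0.02, and 27 stayed within 0.5 units. The exception was Fos, the AP-1 subunit, at 0.26, 1.02, 0.11, 0.17 and 0.11: it was high at 0.5 h alone and its step was -0.91. Ier3, an anti-apoptotic early response gene, had a step of -0.32 from 0.43 to 0.11 and Gadd45g, a growth arrest gene, a step of -0.43 from -0.03 to -0.46, both within 2 standard deviations of a probe. Jund, a constitutive AP-1 member, had the largest positive step at 0.34 from probes at 0.09 and 0.59. Egr1, Atf3, Fosb and Ier2 were not analysed here. The MAP kinases and their phosphatases, 12 measured, had a median of -0.10, and Mapk8 (JNK1) was the one member past 0.5 units, at 0.56.

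Of 14 measured genes of MHC class I antigen presentation, 12 had a step above 0 (all genes 50.1%), the median was 0.10 and 2 were at least 0.5 units higher (all genes 5.46%). With quantile normalization 7 of 14 were above 0 and the median was -0.0043, and with cyclic loess 4 of 14 and -0.16. Psmb9, an interferon-inducible immunoproteasome subunit, stood at 0.68, 0.70, 1.68, 1.05 and 0.94, a step of 0.98 from probes at 0.35 and 1.61. Psmb10, another such subunit, stood at -0.09, -0.05, 0.57, 0.93 and 0.30, a step of 0.63. The peptide-loading factor Tapbp had a step of 0.49 and the proteasome activator Psme2 0.45, with probes at 0.23 and 0.67. With cyclic loess Psmb9 had 0.04, Tapbp -0.33 and Psme2 -0.16. Of 7 MHC class II genes, Ctss, the cathepsin S that trims the invariant chain, alone passed 0.5 units. It stood at 1.76, 1.07, 1.74, 1.78 and 2.31, so its step of 0.67 was a return from a low 0.5 h value and was -0.90 with cyclic loess.

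**Figure D3:**
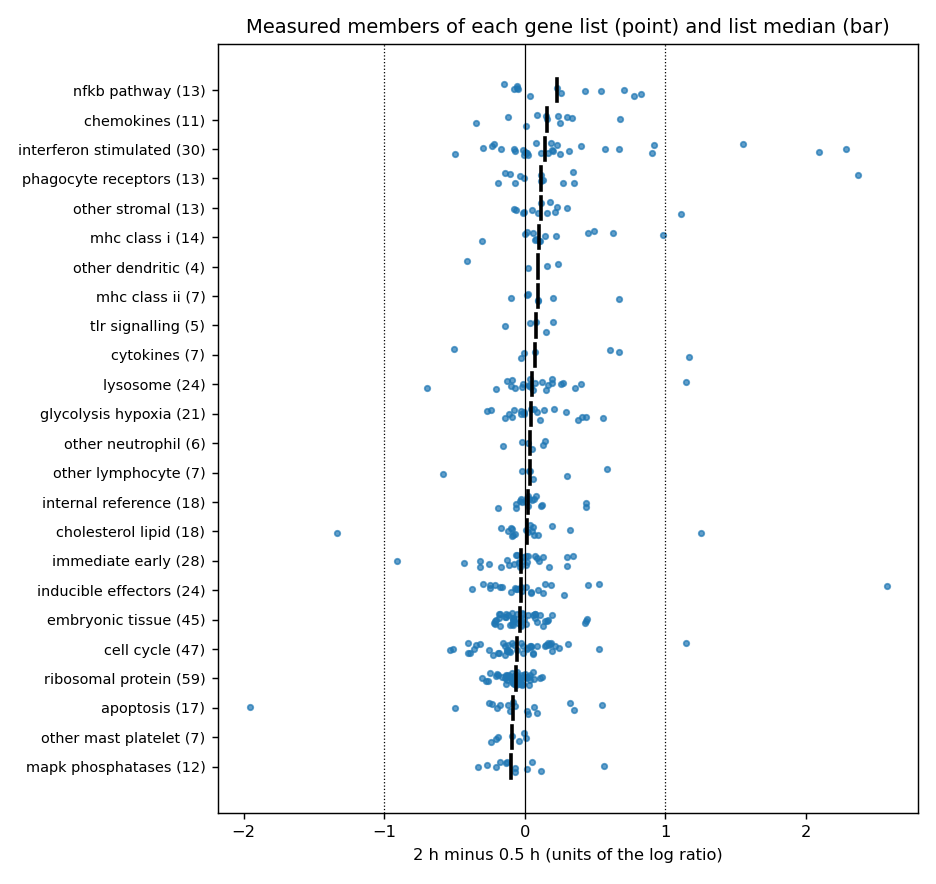
Steps of the measured members of 24 gene lists (points) and their medians (bars), in units of the log ratio (x axis), with the number measured in parentheses; the dotted lines mark 1 unit. The NF-kappaB list has the highest median at 0.23 (-0.04 with cyclic loess), and Gbp2, Eif2ak2 and Rsad2 lie far to the right within the interferon list.

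The remaining lists stayed close to 0 in their medians. Ribosomal protein genes were the best-covered group, with 59 measured and 54 of them on 2 or more probes. Their median was -0.06, with 12 above 0 (all genes 50.1%), 47 below 0 and none past 0.5 units. In 24 of them all probes were below 0 and in 2 all were above. Over all 3034 multi-probe genes, 573 had all probes below 0 and 677 all above. Measured from the 0 h array instead of the 0.5 h array, 32 of the 59 were above 0 and the median was 0.01. Rpl14, with 4 probes between -0.43 and -0.18, had a step of -0.25. Medians were 0.05 for 24 lysosomal genes, 0.04 for 21 genes of glycolysis and hypoxia, -0.05 for 47 cell cycle genes, -0.08 for 17 genes of apoptosis and -0.03 for 24 inducible effectors of macrophages. In these lists the members past 1 unit were Hexa, Gins2 (1.15), a DNA replication helicase subunit, Cideb and Ptger4. Hif1a, the hypoxia-inducible factor subunit, had 6 probes with steps of -0.03 to 0.66 and a mean of 0.41.

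Markers of other cell types were set beside these values. The medians were 0.11 for 13 stromal and endothelial markers, 0.04 for 6 neutrophil markers, 0.03 for 7 lymphocyte markers, 0.09 for 4 dendritic cell markers and -0.09 for 7 mast cell and platelet markers. One of these 37 passed 1 unit, the endothelial cadherin Cdh5, at 0.43, 0.19, 1.30, 0.41 and 0.73, a step of 1.11. Cd3d, a T cell receptor chain, had a step of 0.59 and Gzmb, granzyme B, -0.58. With 1 array a side, a change in the share of a cell type and a change in RNA per cell cannot be told apart.

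The 7 h and 0 h arrays share no array with the step and so give a second look at its genes. This look is not independent of the step, because the 0 h array correlated with the 0.5 h array at 0.72 over probes. The 7 h array correlated with the 2 h array at 0.59. Of all genes, 51.1% were higher at 7 h than at 0 h, 2.66% by at least 0.5 units, and 2.82% were at least 0.5 units lower. Of the 149 genes with a step of at least 1 unit, 120 (80.5%) were higher at 7 h than at 0 h, 23 (15.4%) of them by 0.5 units or more. At 21 h, 41 of the 149 (27.5%) were at least 0.5 units above 0 h, against 3.27% of all genes. Against 0 h, the median of the 149 was higher by 0.17 at 7 h and by 0.33 at 21 h. The 2 h array was at least 1 unit above each of the other 4 in 91 of the 149. Any gene of this form is among the 149 by definition, and the count over all 8692 genes was also 91. This count uses the values of the step and is not part of the second look. Among the 64 lower genes, 30 (46.9%) were at least 0.5 units lower at 7 h than at 0 h. Some of these 30 were above the array median at 0 h already, such as 1700020M21Rik (0.78), Rwdd2a (0.73) and Spag6l (0.66).

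Some list members that are known targets of LPS and interferon were still well above 0 h at 7 h. Il1a was higher at 7 h than at 0 h by 1.99, Gbp2 by 1.38, Il1rn by 1.28, Cxcl10 by 1.28, Rsad2 by 1.05 and Psmb10 by 1.02. Of these, Il1rn, Cxcl10 and Psmb10 had steps below 1 unit. Genes outside the lists with a step of at least 1 unit were also higher at 7 h than at 0 h. Among them were Phactr4 by 2.16, Siglecf by 1.47, Lrif1 by 1.06 and Smyd3 by 0.92. The genes past 1 unit that stayed higher were thus not only such targets. Of the 14 agreeing genes past 1 unit, 3 were at least 0.5 units higher at 7 h than at 0 h (all genes 2.66%), namely Rsad2, Ngb and Chrac1. Of the same 14, 7, Ngb and Chrac1 among them, had a 2 h value at least 1 unit above each of the other 4 arrays, a count that uses the values of the step. In the interferon list 11 of 30 and in the NF-kappaB list 5 of 13 were at least 0.5 units higher at 7 h than at 0 h (all genes 2.66%).

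**Figure D4:**
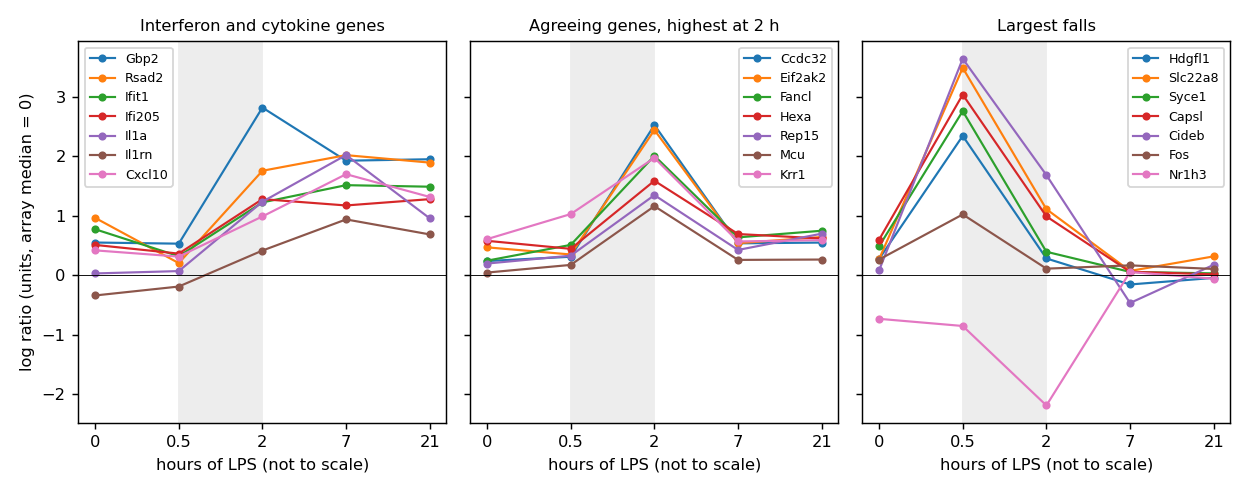
Centred log ratios (y axis, units) on the arrays of 0, 0.5, 2, 7 and 21 h of LPS (x axis, not to scale) for 3 sets of genes, with the step shaded. Interferon and cytokine genes such as Gbp2, Rsad2 and Il1a stay high at 7 h, Ccdc32 and Eif2ak2 are high at 2 h alone, and Slc22a8, Cideb and Hdgfl1 peak at 0.5 h while Nr1h3 dips at 2 h.

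Steps past 1 unit were not spread evenly over the probe numbers, which run from 1 to 19828. Over stretches of 1000 numbers, the 6 stretches with most higher probes held 316 of 426 higher probes (74.2%) but 29.4% of all probes. The 3 stretches with most lower probes held 121 of 184 lower probes (65.8%) and 14.6% of all probes. The stretch from 12001 to 13000 had the most, with 83 of 926 probes (8.96%) at least 1 unit higher and a median step of 0.21. Gbp2, Fcgr1, Vegfc and both probes of Ifit1 lay in it, as did 1 probe each of Eif2ak2 (step 2.81) and Rsad2 (step 2.54). The second probes of Eif2ak2 and Rsad2 lay outside it, at 11451 and 14280, with steps of 1.37 and 0.56. Both probes of Fancl lay in the stretch from 15001, where 6.62% of probes were at least 1 unit higher. The probes of Rep15 (9801 and 10004) and of Mcu (7959 and 8142) were also near each other. Those of Ccdc32 (2924 and 7918) and Hexa (8361 and 15800) were far apart. After a running median along the probe numbers was taken off each array, the steps of Rsad2 were 2.24 and 0.69, those of Eif2ak2 2.55 and 1.44, those of Ifit1 0.84 and 0.38, and that of Gbp2 2.04. Of the lower genes, Spag6l, Speer5-ps1, Enkur and 1 probe of Hdgfl1 lay in the stretch from 4001, where 2.97% of probes were at least 1 unit lower. In the stretch from 5001, with 4.25%, lay 1700020M21Rik, Syce1, Capsl, Rwdd2a and the other probe of Hdgfl1. Cideb, Slc22a8 and Tinf2 lay outside both, at 147, 281 and 3374. With the running median taken off, the steps of Hdgfl1 were -1.51 and -2.46 and that of Syce1 -2.21. A running median takes off a local shift in level and leaves a local widening in place, so it could change large steps little. In the stretch from 12001 the 2 h values had a standard deviation of 0.71, against 0.53 for the whole 2 h array. The part of position in the counts was not tested further.

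**Figure D5:**
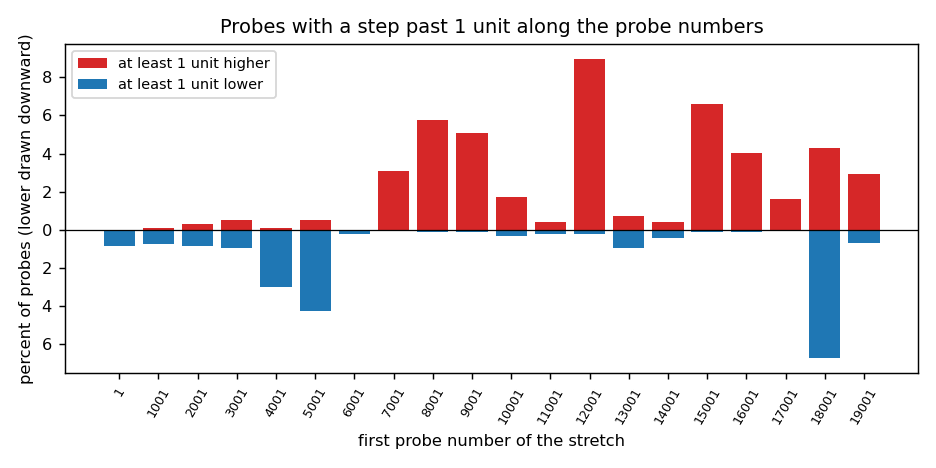
Percent of probes (y axis) at least 1 unit higher (red, upward) and at least 1 unit lower (blue, drawn downward) in each stretch of 1000 probe numbers (x axis, first number). Higher probes reach 8.96% in the stretch from 12001, and lower probes cluster in the stretches from 4001, 5001 and 18001.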

How the data were processed

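The series holds 5 two-channel arrays of 1 culture each, grouped by the hours of LPS in the labels. Per the labels, column-purified total RNA was labelled through amino-allyl cDNA, and no dye other than Cy3 is named. Each value the authors deposited is a signed log ratio, taken here as a score: its log base, direction, background correction and normalization are not given in the sources used. Of 19828 probes, 18391 had a value on all 5 arrays; 14759 probes had 1 gene, 170 several and 4899 none in the platform annotation. Each array was centred on its median over probes valued on all 5 arrays, 2 h minus 0.5 h was taken per probe, and probes of 1 gene were averaged (13876 probes, 8692 genes). Array number limits the precision. Thresholds were 1 and 0.5 units, without a test, and the code was tested on simulated data.

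Named were, among agreeing genes, the 15 largest positive and 10 largest negative steps, among 1-probe genes the 10 largest of each sign, up to 4 members per list by absolute step, and genes past 1 unit with disagreeing probes. The members and lists were chosen with earlier results of these data known. Alternatives were uncentred values, quantile, cyclic loess (limma 3.58.1, R 4.3.3) and scale normalization, other probe sets and summaries, a running median over 201 probes, 1.5 units, and leaving out the lowest 10% of ratios. The earlier side was also taken as the mean of 0 h and 0.5 h; taking 0 h or 7 h as a side was added after the data were seen. Python 3.11.15, numpy 2.4.6 and pandas 2.3.3 were used.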

Additional observations from a re-analysis of the deposited data

How the results depend on the processing

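No paired analysis was possible because each time has 1 array, and for the same reason no replicate could be left out. The counts kept to within 1.5 times of those reported without centring, with probes valued on the 2 arrays, with the median over probes and without the lowest 10% of ratios; the spread of the arrays and the choice of the earlier and later array moved them. Genes at least 1 unit higher numbered 149 as reported, 48 with quantile normalization, 56 with cyclic loess, 64 with scaled arrays, 58 at 1.5 units, 236 from the 0 h array and 13 with the 7 h array in place of 2 h. Genes at least 1 unit lower numbered 64, then 34 with quantile normalization, 156 with cyclic loess, 96 with scaled arrays, 18 at 1.5 units, 11 from the mean of 0 h and 0.5 h, 8 from 0 h and 264 with 7 h. Agreeing genes higher numbered 14, then 3, 4 and 5 with quantile, cyclic loess and scaled arrays, 8 with the running median removed, 4 at 1.5 units, 22 from the mean, 37 from 0 h and 4 with 7 h. Agreeing genes lower numbered 4, then 1 with quantile, 13 with cyclic loess, 1 with the running median removed, 1 at 1.5 units, 2 from the mean, 1 from 0 h and 19 with 7 h. Single-probe genes higher numbered 133, then 45, 52 and 59 with quantile, cyclic loess and scaled arrays, 54 at 1.5 units and 9 with 7 h. Single-probe genes lower numbered 60, then 33, 140 and 92, 17 at 1.5 units, 9 from the mean, 7 from 0 h and 234 with 7 h. Of the 149 higher genes, quantile normalization kept 48, cyclic loess 56 and the running median 114. Higher genes made up 93.9% of those past 1 unit from the mean of 0 h and 0.5 h, 96.7% from 0 h and 4.69% with 7 h.

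Among the named genes with a reported step past 1 unit, the sign turned with the 7 h array in place of 2 h for Tbx18 (-0.18), Tmem177 (-0.11), Ablim1 (-0.25), Enpp5 (-0.10), Ptger4 (-0.16), Gins2 (-0.15), Bud23 (-0.020), Nsun4 (0.19) and Nr1h3 (0.91). From the 0 h array it turned for Hdgfl1 (0.0092), Ssmem1 (0.076), Slc22a8 (0.84), Capsl (0.39), Spag6l (0.54), Cideb (1.60), Enkur (0.73), Tinf2 (0.57) and Rwdd2a (1.44). Among the named genes with smaller steps it turned for 24 with 7 h and 11 from 0 h, and for 12 with cyclic loess. The cause of the shifts was not tested.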

Other observations

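Some genes outside the lists had both a step of at least 1 unit and a difference between 7 h and 0 h of at least 0.5 units in either direction, each from 1 probe and picked out after the values were seen. Siglecf, a sialic acid-binding lectin of alveolar macrophages and eosinophils, stood at -0.29, 0.71, 1.96, 1.19 and 1.18, so it was higher at both 0.5 h and 2 h. Hcst, the signalling adaptor DAP10, stood at -0.12, 0.36, 1.43, 0.48 and 0.45. Phactr4, a regulator of protein phosphatase 1 and actin, stood at -1.44, 0.21, 1.65, 0.72 and 0.61, a difference of 2.16 between 7 h and 0 h. Clec4n, the fungal lectin receptor dectin-2, had the opposite course, at 0.77, 1.84, 0.71, 0.19 and 0.61, a step of -1.13.

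Probes without a named gene took part in the step. Of 4356 such probes, 132 were at least 1 unit higher (3.03%, against 2.32% of all probes) and 74 at least 1 unit lower (1.70%, against 184 of all 18391 probes). A further 624 probes were empty at 0.5 h and had a value at 2 h, at least 1 unit above the array median in 131, and 198 had a value at 0.5 h and were empty at 2 h, at least 1 unit above in 16.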
